A study of Mus musculus with 72 samples.

Results

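The genes described here encode voltage-gated and potassium ion channels, measured in the mouse suprachiasmatic nucleus (SCN), the brain's central circadian clock. They were chosen by symbol alone: every row named Kcn, an Scn sodium channel symbol (Scn, a number, then a or b), every Cacn row and every Hcn pore gene. The rule found 141 genes among 24346 symbols. It leaves out Scn2a1, the older symbol of a major sodium channel, and takes in 5 rows that are not channel subunits, the non-coding transcripts Kcnmb4os1, Kcnmb4os2, Kcnd3os and Kcnq1ot1 and the regulator Kcnrg.

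The study asked how dietary tryptophan and light act together on circadian rhythms. RNA-seq was made from the SCN of male C57BL/6 mice, aged 8 weeks when they were acclimated to the light schedule in group housing. They were then kept singly for 1 week in 12 h light and 12 h dark (LD) or in constant darkness (DD). For 2 more weeks, in the same light, they freely ate a tryptophan-depleted diet (-Trp) or a nitrogen-matched control diet (Ctrl). Their age when tissue was taken is not stated. The 72 libraries make 4 groups of 18, each of the diets in each light schedule (Ctrl LD and -Trp LD, then Ctrl DD and -Trp DD), with 3 libraries at every 4 h from 0 to 20 h. The columns label these times as zeitgeber time in both schedules, while the paper writes circadian time for mice in DD. The labels do not say whether replicates are separate mice, while the study counts the replicates of these data as mice. All mice were wild-type, and no cell type was isolated: each value is an average over the cells of a dissected piece of tissue.

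Voltage-gated channels open and close with the voltage across the membrane and so shape the firing of neurons. Sodium and calcium channels let in the current that drives a spike and triggers release of transmitter, while most potassium channels end the spike and hold the resting voltage, and HCN channels pass a pacemaker current. SCN neurons fire faster by day than by night, and calcium-activated, fast delayed rectifier and A-type potassium currents are known for their part in that rhythm. A pore subunit forms the channel itself, and auxiliary subunits set its gating, its place in the cell or its amount.

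Values are FPKM, fragments per kilobase of transcript set against all mapped fragments, which are per length and can be compared between genes. FPKM holds no read counts, so the depth and the counting error of each value are unknown. The deposited columns do not carry the order of the paper's supplementary table of oscillating genes: for the Ctrl groups its values matched a deposited column that bears a different name in 36 of 36 cases (relative tolerance 0.0001) and the column of the same name in 0. Libraries were therefore placed in that table's order, where the 36 -Trp columns rest on continuing the same shift. For each comparison the count over all channel genes tested is also given with the columns as named, since it depends on this choice, and counts of roles and of separate ranges are given in the order used only.

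In the order used, the sum of FPKM over all rows ran from 403066 to 524705 in the 36 LD libraries and from 317417 to 353587 in 35 DD libraries, with no overlap. The remaining DD library, -Trp DD at 4 h replicate 2, had a sum of 411944. Light schedule and whatever else separates these ranges cannot be told apart. With the columns as named, the higher range would hold 12 of the 18 Ctrl LD libraries, 1 of 18 -Trp LD, 6 of 18 Ctrl DD and 18 of 18 -Trp DD. In Ctrl LD and in Ctrl DD the columns named 16 and 20 h would lie in the other range from those named 0 to 12 h. A cycle by the column names in these 2 groups cannot be told apart from that step.

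The tissue was checked against marker genes, all of which were detected. Summed SCN markers (Avp, Vip, Six6, Lhx1 and others) lay at 567.3 to 1395.2 FPKM in 35 LD libraries and 341.7 to 790.6 in 34 DD libraries. Ctrl DD at 12 h replicate 1 had 181.6, with 382.9 of telencephalon and thalamus markers against a highest value of 48.2 in the other DD libraries. The library -Trp LD at 20 h replicate 3 had 466.4 and 596.0, against up to 285.5 telencephalon and thalamus markers in the other LD libraries. These 2 and -Trp DD at 4 h replicate 2 stand apart, and most counts over all channel genes are given with all 72 libraries and with these 3 left out. Counts by role, and those over the lists of firing channels, partners and pumps, are given with all 72 only. Neuron markers (Snap25, Map2 and others) also differed, at 1269.0 to 1760.4 in the other LD libraries and 940.3 to 1264.0 in the other DD libraries, while oligodendrocyte markers lay at 1615.8 to 3348.0 and 874.3 to 2396.3. Neighbouring hypothalamus markers (Oxt, Pomc and others) lay at 1280.9 to 3488.7 in these LD libraries and 1006.0 to 1903.5 in these DD libraries. Pituitary markers reached 811.2 in LD and 95 in DD, and choroid plexus and ependymal markers 160.8 and 354.7, in libraries that were kept. Fewer cells of a type and less RNA per cell cannot be told apart in bulk tissue, and the part of these shifts in the channel results was not tested.

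Most channel genes were expressed. Averaged over the 72 libraries, 0.5 FPKM or more was reached by 113 of the 141 (80.1%, against 58% of all rows), and 10 FPKM or more by 40 (28.4%, against 25.3%). None was at 0 in every library. The other 28, under 0.5 FPKM, included the skeletal muscle sodium channel Scn4a and calcium channel Cacna1s, the photoreceptor channel Cacna1f and the cardiac and epithelial Kcnq1 and Kcne1.

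Among the auxiliary subunits, the highest of its role was Kcnab2 for the potassium auxiliary subunits (mean 42.9 FPKM), Cacng7 for the gamma subunits and AMPA receptor regulators (40.4), Cacnb3 for the calcium beta subunits (31.9) and Cacna2d2 for the alpha2delta subunits (24.8). Among potassium pores the highest was Kcnj10, the inward rectifier of astrocytes and oligodendrocytes (59.9). Other potassium pores that led their roles were Kcnc1, a fast delayed rectifier (29.0), Kcnk1, a two-pore leak channel (20.4), Kcnt1, a sodium-activated channel (16.3), and Kcnh2, of the Erg type (15.6). The silent subunit Kcnf1, which acts only with Kv2 pores, had a mean of 9.98. Among the other pores Hcn2 (27.4), Cacna1b, the N-type calcium channel of nerve terminals (13.1), and Scn1a (12.7) led.

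**Figure D1:**
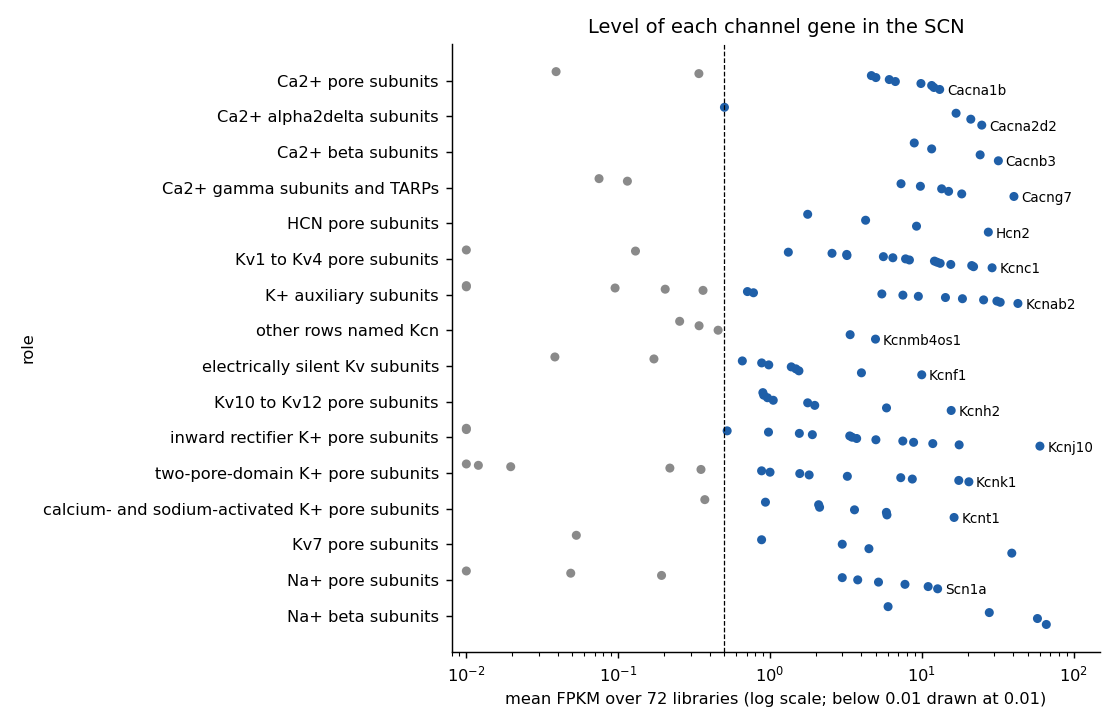
Mean FPKM of each of the 141 channel genes over 72 SCN libraries (log axis), by role; the dashed line is at 0.5 FPKM, genes below it are grey, and values under 0.01 are drawn at 0.01. The highest gene is labelled in all but 2 of the roles, among them Kcnj10 (59.9) and Kcnab2 (42.9), and every role but the alpha2delta, calcium beta, sodium beta, HCN and Kv10 to Kv12 subunits has members under 0.5.

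The clearest difference was between the light schedules. Large pore-forming subunits of calcium, sodium and several potassium channels were mostly higher in DD, and the sodium beta, potassium auxiliary and gamma subunits mostly lower. By limma's moderated test on log2(FPKM + 0.5) with Benjamini-Hochberg adjustment, 92 of 112 channel genes tested differed (82.1%), 47 higher and 45 lower in DD, where 85.2% of all genes tested differed, so the share is not particular to channels. Of all genes tested, 40.7% were called higher in DD and 44.5% lower. The median difference was 0.018 over the channel genes and -0.023 over all genes, on the log2 scale. Without the 3 libraries that stand apart the count was 100 of 112 (50 and 50), where 86.7% of all genes differed. Of the 92, 91 kept their direction and call, and Kcnj13 was no longer tested. Without any scaling between libraries the median of all genes was -0.111, and 43 channel genes were called higher and 51 lower. By the column names, 26 of 112 differed (3 higher, 23 lower; 28.3% of all genes).

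The difference followed transcript length, in channel genes as in all genes. Its Spearman correlation with the longest annotated transcript was 0.63 over the 112 channel genes and 0.53 over 13854 genes, as a description across genes of the same libraries. Channel genes longer than 8 kb, of which 23 were tested, had a median difference of 0.93 (0.67 over all genes of that length), and 21 of them were called higher in DD and 0 lower. Calls among all genes of that length were not counted, so this count is not read as particular to channels. Those of 2 to 4 kb had a median of -0.24, against -0.10 over all genes of that length. Within single libraries, the correlation of all genes' levels (relative to the mean over libraries) with length ran from -0.60 to -0.13 in LD and from 0.13 to 0.61 in 35 DD libraries, and was -0.35 in -Trp DD at 4 h replicate 2. Each library was therefore also centred on its own trend with length, or with length and GC content, a step chosen after seeing the data. After centring on length 91 of 112 channel genes were called (38 higher, 53 lower; 82.5% of all genes), and after centring on both 86 (38 higher, 48 lower; 82.7% of all genes). Of the 92 genes called before, 73 kept call and direction after centring on length and 8 were called in the opposite direction. Called in 1 direction under both centrings, without the 3 libraries and with each library left out were 63 genes, 28 higher and 35 lower in DD. These counts of kept directions were made for channel genes only. They have no share of all genes beside them and are not read as particular to channels.

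**Figure D2:**
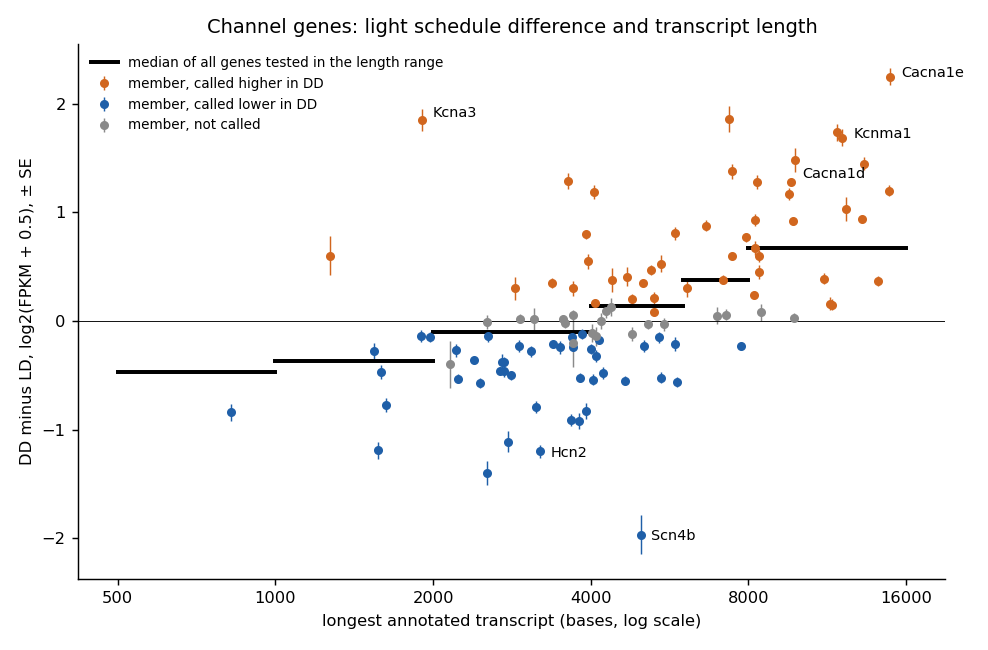
DD minus LD difference (log2, ± SE) of the 112 channel genes tested against the length of their longest annotated transcript (bases, log axis); black bars are medians of all genes in each length range. Genes longer than 8 kb lie mostly above 0 (median 0.93) and those of 2 to 4 kb mostly below (median -0.24), as the bars of all genes do (0.67 and -0.10).

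Calcium channel pores mostly shared a direction: 7 of 8 tested were called higher in DD and 0 lower, and 5 were called higher and 1 lower after centring on length. Over all genes 40.7% were called higher and 44.5% lower, and after that centring 40.5% and 42%. The same shares stand beside the counts of the other roles below, and whether a role differs from them was not tested. Cacna1d, an L-type channel that opens at low voltages in pacemaking cells (chromosome 14, 30039939 to 30491455, minus strand, mm10), lay at 2.17 to 3.95 FPKM in LD (median 2.73) and 5.66 to 8.54 in DD (median 7.22). No LD library reached a DD library, with all 72 in place. The difference was 1.28 (SE 0.035, adjusted p = 8.6e-42) and 0.64 after centring on length.

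Cacna1e, the R-type channel (chromosome 1, 154390731 to 154884501, minus strand), lay at 1.93 to 7.53 in LD (median 4.11) and 7.38 to 23.7 in DD (median 20.4). Its ranges touched only through -Trp DD at 4 h replicate 2 and -Trp LD at 20 h replicate 3: without the 3 libraries LD ended at 7.17 and DD began at 15.4. The difference was 2.25 (SE 0.078, adjusted p = 1.8e-37), and 1.27 after centring on length.

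The N-type Cacna1b rose in DD by 0.92 (SE 0.037), from a median of 9.14 to 17.1 FPKM, and by 0.27 after centring. The L-type Cacna1c also rose by 0.94 (SE 0.039), from 3.14 to 6.07, but by 0.05 after centring on length, where it was no longer called (adjusted p = 0.078). Cacna1i, a T-type channel, differed by 0.03 (adjusted p = 0.49), and by -0.62 after centring on length.

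The subunits that accompany calcium pores did not share one direction. Cacna2d1, an alpha2delta subunit that carries pores to the membrane, was higher in DD by 1.38 (SE 0.069) and by 0.93 after centring, with a median of 12.1 FPKM in LD and 30.7 in DD, while Cacna2d2 was lower by 0.21. Of the beta subunits Cacnb2 and Cacnb4 rose, and Cacnb1 and Cacnb3 fell. Among the gamma subunits and AMPA receptor regulators 0 of 6 were called higher and 5 lower. Cacng3, which regulates AMPA receptors, ran from 11.8 to 45.2 in LD (median 18) and from 4.12 to 38.8 in DD (median 7.17), a difference of -1.11 (SE 0.096). Its DD values ended at 11.3 with the 3 libraries left out, below every LD library.

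**Figure D3:**
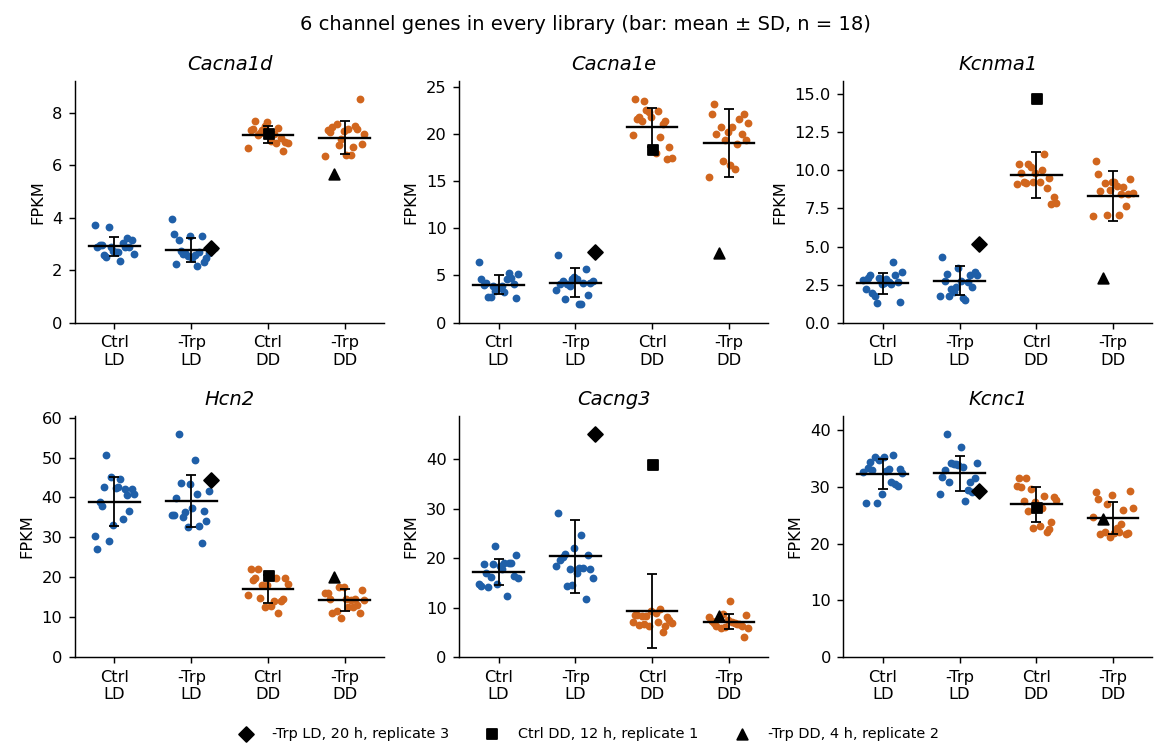
FPKM of 6 channel genes in each of the 72 libraries by group (Ctrl LD, -Trp LD, Ctrl DD, -Trp DD), with the mean ± SD of 18 libraries as bars; black symbols are the 3 libraries that stand apart. Cacna1d lies at 2.17 to 3.95 in LD and 5.66 to 8.54 in DD and Hcn2 at 27.2 to 56.0 and 9.80 to 22.1, with no overlap, while in Cacng3 the highest DD value (38.8) is that of Ctrl DD at 12 h replicate 1.

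Sodium channel pores and their beta subunits went opposite ways. Of 6 pores tested 5 were called higher in DD and 0 lower, and of 4 beta subunits 0 higher and 4 lower, after centring too. Centring on length left 3 pores higher and 2 lower. Scn7a, a sodium-sensing relative of the channels, lay at 0.386 to 1.53 FPKM in LD (median 1.05) and 0.712 to 9.09 in DD (median 5.06), a difference of 1.86 (SE 0.12) and of 1.42 after centring. Its lowest DD value was 1.68, above LD, once the 3 libraries were left out. Scn3a, an embryonic-type pore, differed by 1.17 (SE 0.056) and Scn9a by 1.48 (SE 0.11).

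Scn4b, which gives resurgent sodium current in striatum and elsewhere, had the largest fall among the channel genes called, 1.97 (SE 0.18, adjusted p = 7.5e-16). It ran from 3.21 to 92.6 in LD (median 6.12) and from 0.485 to 9.87 in DD (median 1.40), with its highest value in -Trp LD at 20 h replicate 3, the library with the most telencephalon and thalamus markers (596.0). With the 3 libraries left out it fell by 1.94, with LD up to 45.6 and DD up to 2.89. Across the other libraries these markers reached 285.5 in LD and 48.2 in DD, and their part in this difference was not tested.

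The HCN pores split before centring, with 2 called higher in DD and 2 lower, while after centring on length 0 were called higher and 3 lower. Hcn2 (chromosome 10, 79716634 to 79736108, plus strand) lay at 27.2 to 56.0 in LD (median 39.3) and 9.80 to 22.1 in DD (median 14.8), with no overlap. The fall of 1.20 (SE 0.060, adjusted p = 6.5e-29) was 1.14 after centring on length and 0.85 with GC content added. Hcn3 fell by 0.26 and Hcn4 rose by 0.30, which became -0.02 after centring.

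Among calcium- and sodium-activated potassium pores 4 of 7 were called higher in DD and 2 lower, before and after centring. Kcnma1, the BK pore (chromosome 14, 23289431 to 24014491, minus strand), lay at 1.26 to 5.17 in LD (median 2.66) and 2.96 to 14.7 in DD (median 9.17). Once the 3 libraries were left out, LD ended at 4.30 and DD began at 7.02. The difference was 1.69 (SE 0.082, adjusted p = 1.6e-29) and 0.87 after centring on length. The beta subunits that bind this pore went the other way: Kcnmb2, which inactivates it, fell by 0.23 (SE 0.054, adjusted p = 7.4e-05), and Kcnmb4, its neuronal beta subunit, by 0.77 (SE 0.064). The antisense transcript Kcnmb4os1 overlaps Kcnmb4 on the opposite strand and fell by 0.84 (SE 0.077). Whether the counting used strand is not given, so reads of that pair may not be told apart.

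Of the 15 Kv1 to Kv4 pores tested, 9 were called higher in DD and 4 lower. After centring on length 3 were higher and 8 lower, so the balance of this role turned. Kcna3, a delayed rectifier (chromosome 3, 107036169 to 107038070, plus strand), lay at 0.348 to 2.19 in LD (median 1.31) and 1.17 to 7.81 in DD (median 5.12). Its longest annotated transcript has 1902 bases, and its difference of 1.85 (SE 0.10) was 2.14 after centring. Kcnb2, a Kv2 pore, had separate ranges, 0.363 to 0.849 and 0.962 to 3.01, yet its difference of 1.20 (SE 0.051) came to 0.23 after centring on length and 0.07 with GC content added (adjusted p = 0.17).

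The pores of the fast delayed rectifier were lower in DD: Kcnc1 ran from 27.1 to 39.4 in LD (median 32.9) and from 21.2 to 31.6 in DD (median 26.1), a fall of 0.23 (SE 0.035, adjusted p = 1.6e-08), and Kcnc2 fell by 0.23 (SE 0.052, adjusted p = 5.2e-05). Both fell further after centring, by 0.71 and 0.41. The A-type pores depended on the centring. Kcnd1 was higher by 0.08 (adjusted p = 0.030) but lower by 0.13 after centring on length. Kcnd2 differed by -0.03 (adjusted p = 0.47) before and was lower by 0.23 (adjusted p = 2.6e-09) after, and Kcna4 was higher by 0.20 before but no longer called after (0.06, adjusted p = 0.28). Of the potassium auxiliary subunits 0 of 11 were called higher and 8 lower. Kcnab3, a cytoplasmic beta subunit of Kv1 pores, had a difference of -1.40 (SE 0.11), from a median of 7.66 to 2.35 FPKM, and Kcnab2 of -0.83 (SE 0.071), from 56.6 to 28.7. The highest DD values of both (14.6 and 92.5) were those of Ctrl DD at 12 h replicate 1. With the 3 libraries left out Kcnab2 in DD ended at 35.8, below LD, and Kcnab3 at 4.58, just above the lowest LD value (4.50).

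Kv7 pores were called higher in 3 of 4 cases and lower in 0, but after centring on length 2 were called higher and 2 lower. Kcnq3 had a median of 1.94 in LD and 7.12 in DD (1.74, SE 0.078, and 0.94 after centring). Kcnh7, an Erg-type pore, was higher by 1.45 (SE 0.058) and by 0.56 after centring, from 0.364 to 1.79, while Kcnh2 fell by 0.48, from a median of 19.1 to 12.8. Inward rectifiers were mixed (5 higher, 6 lower of 13) and so were two-pore channels (3 higher, 4 lower of 9). Kcnk1 was lower by 0.53 (SE 0.041), with a median of 24.5 in LD and 15.5 in DD, and Kcnk2 did not differ past the threshold (-0.02, adjusted p = 0.71). The astrocyte inward rectifier Kcnj10 fell by 0.15 (adjusted p = 0.0035), with LD at 44.4 to 89.1 and DD at 33.4 to 76.0. Silent Kv subunits were lower in 4 of 8 cases and higher in 1.

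Separate ranges in LD and DD with all 72 libraries were seen for 5 of the 113 expressed channel genes, among them Cacna1a, Cacna1d, Hcn2 and Kcnb2, named here after their values were seen, against 6.8% of all genes. Leaving out the 3 libraries raised this to 27 of 113 (23.9%), against 19.4% of all genes.

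The light difference was also called on each diet alone. On the Ctrl diet 89 of 112 channel genes were called (52 higher in DD, 37 lower; 78.8% of all genes), and on the -Trp diet 90 of 112 (40 higher, 50 lower; 79.6% of all genes). The counts after centring on length were 77 on Ctrl (32 higher, 45 lower; 72.9% of all genes), where the balance turned, and 86 on -Trp (30 higher, 56 lower; 77.4% of all genes). With GC content added they were 78 (36 higher, 42 lower; 73.7%) and 83 (33 higher, 50 lower; 77.9%). In a count made for channel genes only, 75 of 111 were called in the same direction on both diets and 1 in opposite directions. The latter was Kcnk2, a mechanosensitive leak channel, higher in DD by 0.16 (SE 0.045) on Ctrl and lower by 0.20 (SE 0.073) on -Trp. Leaving out the 3 libraries gave 90 (81.7% of all genes) and 93 of 113 (80.5%). By the column names the counts were 13 of 113 on Ctrl (5.68%) and 81 of 111 on -Trp (78%), and 77 of the 90 genes called on -Trp were then called in the opposite direction.

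Diet moved few channel genes in LD. Of 110 tested, 3 were called, against 1.11% of all genes: Kcne1l and Kcns3 were lower and Kcna5 higher on -Trp. Kcne1l, the X-linked Kcne5 that modulates Kv7 and Kv2 pores, lay at 7.66 to 13.5 in Ctrl LD (median 9.48) and 5.13 to 8.94 in -Trp LD (median 7.03). The ranges overlapped in part, and the fall was 0.40 (SE 0.058, adjusted p = 0.00024), called in 36 of 36 fits with 1 library left out. In DD, Kcne1l was not called with all libraries (adjusted p = 0.36) but was without the 3 that stand apart (-0.36, adjusted p = 0.0017), where Ctrl DD at 12 h replicate 1 had 0.949 FPKM.

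Kcna5, a delayed rectifier, lay at 3.26 to 4.96 in Ctrl LD (median 4.50) and 3.82 to 9.70 in -Trp LD (median 5.50), higher by 0.32 (SE 0.075, adjusted p = 0.026). Its highest value was in -Trp LD at 20 h replicate 3, and without the 3 libraries it was still higher, by 0.27. Kcns3, a silent subunit, was lower by 0.16 (SE 0.041, adjusted p = 0.045) but was called in only 10 of 36 fits with 1 library left out, and its adjusted p without the 3 libraries was 0.066. With them left out 4 genes were called (1.15% of all genes), Kcnk2 and Kcnf1 being added. By the column names 67 of 112 would be called (65.5% of all genes).

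In DD the diet changed 8 of 112 channel genes, where 13.4% of all genes were called. The difference between these shares was not tested, and the count ran from 3 to 15 with 1 library left out. They were lower on -Trp but for Kcnip4, a Kv4 partner, which was higher by 0.12. Kcnj10, which takes up potassium into astrocytes, lay at 33.4 to 76.0 FPKM in Ctrl DD (median 63.9) and 40.3 to 60.2 in -Trp DD (median 45.7). Its lowest Ctrl DD value was that of Ctrl DD at 12 h replicate 1. The fall was 0.41 (SE 0.057, adjusted p = 5.1e-05), and 0.44 without the 3 libraries (adjusted p = 4e-08). In LD its difference was -0.22 (adjusted p = 0.10). Markers of cells that express Kcnj10 also had lower medians on -Trp in DD, at 1186.2 against 1487.6 FPKM for oligodendrocytes and 514.1 against 542.6 for astrocytes, with overlapping ranges. Oligodendrocyte precursor markers lay at 28.5 to 35.5 in Ctrl DD (median 32.2) and 23.1 to 29.7 in -Trp DD (median 27.4), and the part of these shifts in the fall was not tested.

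The other falls were smaller. Kcnab2 fell by 0.35 (SE 0.11, adjusted p = 0.039), with Ctrl DD at 24.6 to 92.5 (median 32.4) and -Trp DD at 19.1 to 33 (median 25.1), the value of 92.5 again being Ctrl DD at 12 h replicate 1. Cacng2 (-0.22) and Cacng5 (-0.18) are AMPA receptor regulators, Cacnb1 (-0.15) is a calcium beta subunit and Kcnd2 (-0.12) an A-type pore. Their adjusted p-values lay between 0.025 and 0.043. With the 3 libraries left out 17 were called (15 lower, 2 higher; 17.9% of all genes), with 7 of the 8 among them, Kcnip4 being lost. After centring on length 5 were called (12.4% of all genes), 4 of the 8 among them, and with GC content added 4 were (8.79%), 3 of the 8 among them. The count by the column names was 79 of 112 (70.9%).

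The diet effect itself differed between light schedules for 8 of 112 channel genes, against 7.02% of all genes. In all 8 the effect of -Trp was more negative in DD than in LD. This was also so for 715 of the 1012 genes called over all genes (4.96% of those tested, against 2.06% the other way). The median over the channel genes was -0.138 against 0.014 over all genes. Cacnb1 lay at medians of 25.5 (Ctrl LD), 27.1 (-Trp LD), 22.8 (Ctrl DD) and 20.3 FPKM (-Trp DD), so that -Trp was higher by 0.15 in LD and lower by 0.15 in DD, a difference of -0.30 (SE 0.067, adjusted p = 0.005). Kcnk2 moved by 0.18 in LD and -0.18 in DD (-0.36, SE 0.085, adjusted p = 0.0066). The group ranges of both overlapped, and the highest -Trp LD values of Cacnb1 (38.4) and Kcnk2 (27) were those of -Trp LD at 20 h replicate 3.

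Also in this set were Kcnab2, Cacng5, Cacna1i and Kcnj11, the pore of ATP-sensitive potassium channels. Their differences ran from -0.47 (Kcnab2) to -0.22 (Cacng5). With the 3 libraries left out, 11 were called (8.17% of all genes), 7 of the 8 among them, and Cacna1i had an adjusted p of 0.081. After centring on length 8 were called (7.53% of all genes), but only 6 of them were among the 8 before. With GC content added 3 were called, Kcnk2, Cacnb1 and Kcnd2 (2.87%), and 2 of these were among the 8. By the column names 80 of 112 would be called (77%).

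**Figure D4:**
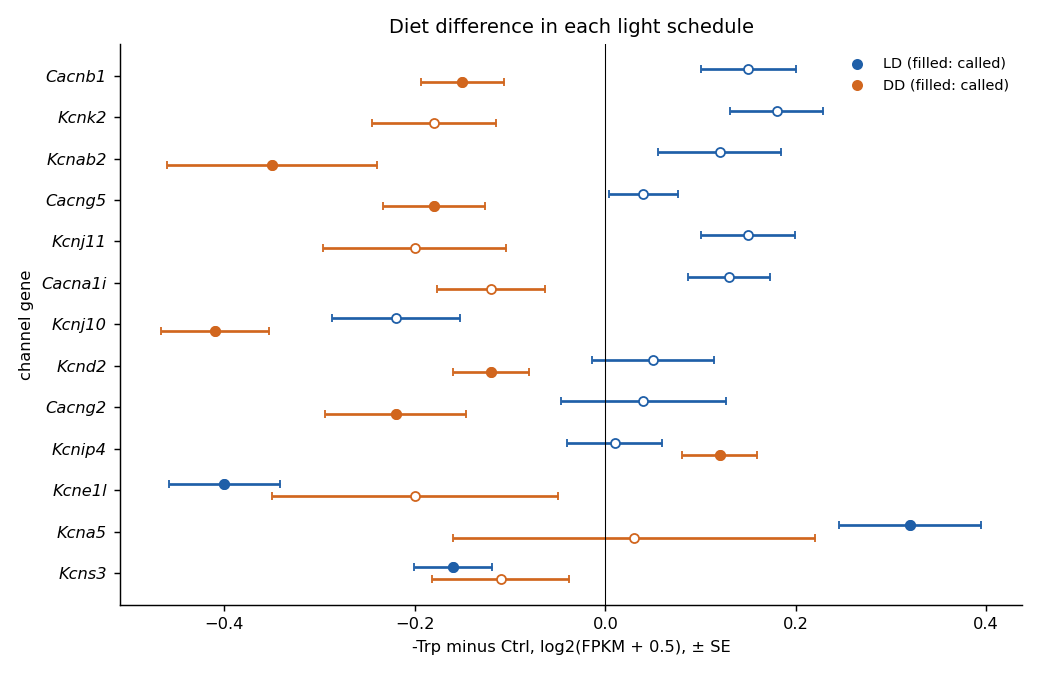
Difference of -Trp minus Ctrl (log2, ± SE) in LD and in DD for 13 channel genes named in the diet comparisons; filled symbols passed an adjusted p of 0.05. Kcnj10 is lowest in DD (-0.41) and Kcne1l in LD (-0.40), while Cacnb1 and Kcnk2 lie above 0 in LD and below it in DD.

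A 24 h cycle was called in LD, over both diets, for 7 of 110 channel genes by limma's F-test of the cosine and sine terms, against 13.4% of all genes. Kcnn2, a calcium-activated potassium channel of the SK type, had the firmest cycle, with a log2 amplitude of 0.24 (SE 0.039, adjusted p = 0.00018) and a peak at 15.2 h. Its mean was 5.25 ± 0.572 FPKM at 4 h and 7.54 ± 1.12 at 16 h (SD, n = 6), where the lowest value at 16 h (6.21) lay just above the highest at 4 h (6.11). It was also called in each LD group by JTK_CYCLE, the rank test for rhythms that the study used.

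Cacna1i, a T-type calcium pore, had an amplitude of 0.17 (SE 0.031, adjusted p = 0.00087) and a peak at 19.7 h. It was lowest at 8 h (5.98 ± 0.734) and highest at 20 h (7.91 ± 0.817), with ranges of 5.21 to 6.96 and 6.90 to 9.01. After centring on length its cycle was not called (adjusted p = 0.15). Kcnu1, a relative of the BK pore, peaked at 2.9 h (amplitude 0.13, adjusted p = 0.0012), opposite to Kcnn2, with means of 1.11 ± 0.0710 at 4 h and 0.808 ± 0.111 at 16 h. Kcnj8, the ATP-sensitive inward rectifier of vessel walls (adjusted p = 0.013), was also higher early in the day, with 1.28 ± 0.295 at 4 h and 0.764 ± 0.0785 at 16 h.

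Kcns3 peaked at 12.5 h (amplitude 0.14, adjusted p = 0.0031). The 2 other cycles were lost in some fits. Kcna5 peaked at 15.9 h (adjusted p = 0.038, called in 29 of 36 fits with 1 library left out) and Kcnh6, an Erg-type pore, did so at 8.7 h (adjusted p = 0.046, called in 14 of 36). Leaving out the 3 libraries, 10 genes were called (12.1% of all genes), and Kcnh6 was not (adjusted p = 0.086). By the column names 32 were called (32%). For comparison, 8 of 16 core clock genes passed the same test in LD, led by Ciart (amplitude 0.36), Dbp (0.58) and Nr1d1 (0.25).

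**Figure D5:**
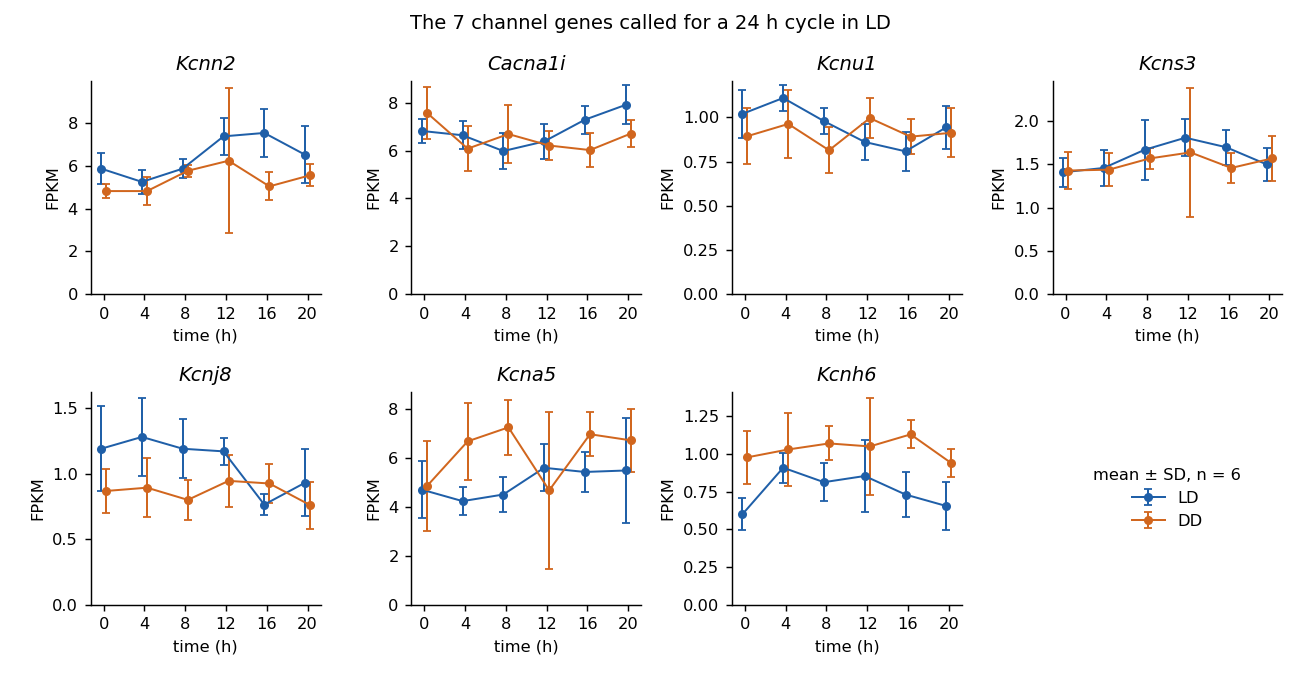
Mean FPKM ± SD (n = 6 libraries, both diets) of the 7 channel genes with a called 24 h cycle in LD, at 0 to 20 h in LD and in DD. Kcnn2 rises from 5.25 at 4 h to 7.54 at 16 h in LD and Kcnu1 falls from 1.11 to 0.808, while in DD no cycle was called.

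In DD no channel gene passed that F-test (0 of 112, 0% of all genes). At an unadjusted p under 0.05 there were 3, and with time as a factor in place of the cycle 0 passed and 4 had an unadjusted p under 0.05. Among core clock genes 0 of 16 passed, with 0 at an unadjusted p under 0.05 and 0 with time as a factor. With the columns as named 9 of the 16 passed in DD and 8 in LD, where a cycle cannot be told apart from the step between the ranges of FPKM sums in the Ctrl groups. As core clock genes did not pass in the order used either, the 0 among channel genes does not show that they lacked a cycle in DD. The difference in cycle between LD and DD was likewise called by limma for 0 of 112 (0.812% of all genes), with 9 at an unadjusted p under 0.05 and 0 called with time as a factor, so a cycle seen in LD is not shown to be absent in DD. With the 3 libraries left out Kcnn2 alone was called to differ (adjusted p = 0.042; 1.44% of all genes). At 12 h in DD its values ran from 4.27 to 13.1. Cycles differed between diets for 0 of 110 in LD (0% of all genes; 1 at an unadjusted p under 0.05) and 0 of 112 in DD (0.0344%, and 0.0552% without the 3 libraries; 8 at an unadjusted p under 0.05) by limma, and also for 0 with time as a factor. The counts with the columns as named were 56 in DD (40.6% of all genes), 48 between LD and DD (44.1%), 46 between diets in LD (52%) and 49 in DD (34.8%).

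By JTK_CYCLE at an unadjusted p under 0.05, the threshold of the study, 12 of 141 channel genes oscillated in Ctrl LD (7.11% of all rows) and 11 in Ctrl DD (4.92%), and on the -Trp diet 8 in LD (7.42%) and 2 in DD (1.42%). As shares of the 141 these were 8.51% and 7.8% on Ctrl and 5.67% and 1.42% on -Trp. With Benjamini-Hochberg adjustment 1 remained, Kcnip3 in -Trp LD (exact p = 0.00017, adjusted p = 0.045). Kcnip3 encodes a calcium sensor that binds Kv4 pores and also acts as a transcriptional repressor. Cacna1i (exact p = 6.3e-05) led in Ctrl LD, Kcnj14 (p = 0.0041) in Ctrl DD and Kcnj16, a glial partner of Kcnj10, in -Trp DD (p = 0.00094).

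Of the 30 channel genes that passed in any group, 27 passed in 1 group only. Kcnn2 and Kcnu1 passed in both LD groups and Kcnj14 in both Ctrl groups. Passing in 1 group is not a difference between groups, which was tested above by limma. Once the library that stands apart in a group was left out, 17 passed in Ctrl DD (5.18% of all rows), and on -Trp 10 in LD (6.64%) and 4 in DD (2.42%). By the column names 70 would pass in Ctrl LD (37.8% of all rows) and 63 in Ctrl DD (27.6%), and on -Trp 3 in LD (2.48%) and 9 in DD (6.68%).

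Channels with a known part in SCN firing were read as a list of 14 genes, among them the BK subunits Kcnma1 and Kcnmb2, the fast delayed rectifiers Kcnc1 and Kcnc2, the A-type pores Kcnd1, Kcnd2 and Kcna4, the leak pores Kcnk1 and Kcnk2, the calcium pores Cacna1c, Cacna1d and Cacna1g, and Hcn2. Between LD and DD 7 were called higher in DD and 5 lower, and after centring on length 2 higher and 8 lower, where 85.2% and 82.5% of all genes were called. The column names gave 5 called (28.3% of all genes). Diet changed 0 of 14 in LD by limma (1 at an unadjusted p under 0.05, 0 in 1 fit of all libraries) and 1 in DD (Kcnd2), and the diet effect differed between schedules for Kcnk2. Of all genes 1.11%, 13.4% and 7.02% were called in these 3 comparisons. After centring on length limma called Kcnk2 in LD (0.18, adjusted p = 0.043) and no longer called Kcnd2 in DD (-0.09, adjusted p = 0.052). For a 24 h cycle 0 of the 14 passed limma's F-test in LD and 0 in DD, with 3 and 1 at an unadjusted p under 0.05 and 0 with time as a factor. Of all genes 13.4% passed in LD and 0% in DD. After centring on length 2 of the 14 passed in LD (13% of all genes). Over the 14 the lowest level was that of Kcnmb2, with medians of 0.838 FPKM in LD and 0.599 in DD.

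Proteins that bind channels without being pores were read as a list of partners. Of 24 tested, 12 were called higher in DD and 9 lower (6 and 15 after centring on length), and 7 were called by the column names, where 85.2%, 82.5% and 28.3% of all genes were called. Unc79 and Unc80, which hold the sodium leak channel, were higher by 1.05 (SE 0.039) and 1.06 (SE 0.042), and by 0.47 and 0.15 after centring, and Adam22, which anchors Kv1 pores, by 0.76. On -Trp in DD 3 of 23 were called, against 13.4% of all genes: Ank3 (-0.16), Cntnap1 (-0.20) and Nedd4l (-0.21) were lower. In LD 0 of 23 were called by limma (1.11% of all genes), with 2 at an unadjusted p under 0.05 and 0 in 1 fit of all libraries.

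Ion pumps and exchangers keep the gradients that channels spend. Of 16, 8 were called higher in DD and 6 lower (2 and 12 after centring on length, and 7 in all by the column names). Of all genes 85.2% were called, 82.5% after that centring and 28.3% by the column names. Atp1b1, a sodium pump subunit, fell by 0.61 (SE 0.032) and by 0.45 after centring, whereas Slc8a1, a sodium-calcium exchanger, was higher by 0.87 but lower by 0.28 after centring. On -Trp in DD 6 of 16 were called lower and 0 higher, where 6.18% of all genes were called lower, and 4 after centring on length. They included Atp1b2, a beta subunit of the sodium pump (-0.18, SE 0.056, adjusted p = 0.03), and Atp2a2, the calcium pump of the endoplasmic reticulum (-0.22, SE 0.058, adjusted p = 0.016). The diet effect was more negative in DD than in LD for 7 of 16, where 7.02% of all genes were called, 4.96% in that direction. After centring on length it was so for 5, against 5.38% of all genes. Slc8a2, a sodium-calcium exchanger, had -0.52 (SE 0.15, adjusted p = 0.019 by limma). Its values ran from 14 to 40.8 FPKM in LD (median 17.3) and from 9.81 to 56.6 in DD (median 19.1). Its fit without the 3 libraries is not given.

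Promoters are shown because clock factors act on cycling genes through short motifs. RefSeq (GRCm38.p6) gave the 250 bases before 138 start sites of 103 of the 141 genes. The E-box of the CLOCK and BMAL1 activators (CACGTG, its own reverse complement) was in 4.35% of these promoters, of 5 genes, against 6.02% of 32851 promoters. The D-box (TTATGTAA) and the cAMP response element (TGACGTCA), read on both strands, were in 0 of them, against 0.819% and 1.55%. Of the 7 genes with a called cycle in LD, 5 had a promoter in the table and 0 of these held the E-box. The 60 bases around it in the 3 genes with the E-box and a mean of at least 0.5 FPKM are printed 5′ to 3′ on the gene's strand, with the motif in capitals: Kcnj2, an inward rectifier (chr11:111066053-111066112, plus strand, the motif 84 bases before the start), Kcnh4, an Elk-type pore (chr11:100759833-100759892, minus strand, 87 bases before), and Kcnab1, a Kv1 beta subunit (chr3:65108825-65108884, plus strand, 162 bases before).
Kcnj2: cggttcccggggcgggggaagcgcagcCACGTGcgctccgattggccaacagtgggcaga
Kcnh4: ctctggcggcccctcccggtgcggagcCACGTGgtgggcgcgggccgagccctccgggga
Kcnab1: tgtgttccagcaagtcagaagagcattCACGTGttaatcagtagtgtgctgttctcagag
These 3 genes were not called cycling in LD or in DD by limma's F-test, while by JTK_CYCLE Kcnj2 passed in -Trp LD (exact p = 0.026, and in 12 of 18 fits with 1 library left out). Their levels in LD and DD had medians of 1.46 and 2.16 FPKM (Kcnj2), 0.611 and 1.15 (Kcnh4) and 13.0 and 14.2 (Kcnab1), of which the first 2 were called higher in DD, by 0.53 and 0.55. Kcnab1 also held the E-box 45 bases before another of its start sites (chr3:65188031-65188090, plus strand), which is not printed. A match of letters is a description and not a bound site.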

How the data were processed

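SCN RNA-seq was analysed in 72 libraries of 4 groups. The authors prepared stranded mRNA libraries, trimmed the reads with Trimmomatic, aligned them to mm10 with TopHat and deposited FPKM values from Cufflinks, in 4 tables of 24883 rows. Versions, the strand setting of the counting and any scaling between libraries are not given in the sources used here. Depth is unknown, so precision comes from the spread between libraries. Columns of other samples numbered 0.

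Values were scaled between the 72 libraries by the median of ratios, genes averaging under 0.5 FPKM were left out, and log2(FPKM + 0.5) was fitted with limma (version 3.58.1, R 4.3.3), with time of day (and diet or light) as covariates and Benjamini-Hochberg adjustment over all genes at 0.05. A fold on this scale understates the change of low genes. Cycles of 24 h were tested by limma's F-test and, on FPKM as deposited, by JTK_CYCLE, rewritten for this work (Python 3.11.15 with pandas 2.3.3 and numpy 2.4.6, an exact null distribution, Bonferroni over 6 lags, no filter). The fits and JTK_CYCLE were tested on simulated data. Transcript lengths and positions are from GENCODE M21, which matched 95.5% of rows by symbol, and plots used matplotlib 3.10.9. Centring used loess with a span of 0.3 in each library.

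Named were, in each comparison, all channel genes called if at most 12, otherwise the 10 with the smallest adjusted p and the 5 with the largest fold in each direction. Further named were the 3 smallest p in each JTK_CYCLE group, the highest gene of each role, all SCN firing channels, and the 3 smallest adjusted p of the partner and pump lists. Genes outside this rule, such as those with separate ranges or the beta and alpha2delta subunits, were named after their values were seen. The channel genes and lists were chosen with earlier results of these data known. Alternatives were the column names, other pseudocounts, filters and scaling, a replicate block, other fits, and leaving out each library. The centrings and the fits without 3 libraries were added after seeing the data. Some genes are not reported here by name and stay in the counts of genes called.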

Additional observations from a re-analysis of the deposited data

Results flagged for a closer look

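By the interaction test of limma the effect of the -Trp diet differed between LD and DD for 8 of 112 channel genes, a share close to the 7.02% of all genes called. The difference of the 2 diet effects (DD minus LD, log2) was, among them, -0.47 for Kcnab2 (SE 0.13, adjusted p = 0.02), -0.36 for Kcnk2, -0.35 for Kcnj11 (SE 0.11, adjusted p = 0.035), -0.30 for Cacnb1, -0.25 for Cacna1i (SE 0.08, adjusted p = 0.04) and -0.22 for Cacng5 (SE 0.066, adjusted p = 0.032). Kcnk2 is a leak channel and Kcnj11 the pore of ATP-sensitive channels. In LD the -Trp effect was 0.12 for Kcnab2, 0.15 for Kcnj11, 0.13 for Cacna1i and 0.04 for Cacng5, and in DD it was -0.35, -0.20, -0.12 and -0.18. Telencephalon and thalamus markers were at 596.0 in -Trp LD at 20 h replicate 3 and 382.9 in Ctrl DD at 12 h replicate 1, libraries that held the highest values of Kcnab2 (86.0 and 92.5 FPKM) in their groups, and their part in these differences was not tested. Without the 3 libraries that stand apart 7 of the 8 kept their call, after centring on length 6 did, and with GC content added 2 did (Cacnb1 and Kcnk2). Cacna1i was called in 48 of 72 fits with 1 library left out.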

How the results depend on the processing

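The column order mattered most. With the columns as named the counts of channel genes called were 26 between DD and LD, 13 on Ctrl, 67 between diets in LD, 79 in DD and 80 for the interaction. For cycles they were 32 in LD, 56 in DD, 48 between LD and DD, and 46 and 49 between diets, and for JTK_CYCLE 70, 3, 63 and 9. By those names a cycle in Ctrl LD or Ctrl DD cannot be told apart from the step between the ranges of FPKM sums. Directions then turned for most named genes. For DD minus LD the values were -0.37 for Cacna1d, -0.76 for Cacna1e, -0.32 for Cacna1b and Scn3a, -0.33 for Cacna1c, -0.13 for Cacna1g and Kcna4, -0.47 for Kcnh7, -0.46 for Kcnb2, -0.70 for Kcnq3, -0.64 for Kcnma1, -0.61 for Scn7a, -0.59 for Kcna3, -0.05 for Kcnd1, 0.32 for Hcn2, 0.44 for Scn4b, 0.48 for Kcnab3, 0.24 for Cacng3, 0.11 for Kcnmb2, 0.03 for Kcnc1, 0.15 for Kcnc2 and 0.16 for Kcnk1. On -Trp they were -1.22 for Cacna1d, -2.19 for Cacna1e, -0.89 for Cacna1b, -1.40 for Scn9a, -1.09 for Scn3a, -2.05 for Scn7a, -1.73 for Kcna3 and Kcnq3, 1.25 for Hcn2, 0.88 for Kcng4, 0.78 for Kcnj11, 0.79 for Kcnab2, 1.90 for Scn4b, 1.47 for Kcnab3 and 1.06 for Cacng3. The diet effect was 0.09 for Kcns3 in LD, and in DD 0.26 for Kcnj10, 0.21 for Cacnb1, 0.19 for Cacng5, 0.74 for Kcnab2 and 0.05 for Kcnd2 and Cacng2. The interaction was 0.41 for Cacnb1, 0.11 for Kcnk2, 1.34 for Kcnab2, 0.43 for Cacng5, 1.23 for Kcnj11 and 0.17 for Cacna1i.

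Of the 92 channel genes called between LD and DD, 8 were called in the opposite direction after centring on length and 10 with GC content added. Under the other alternatives the DD minus LD values that turned included those of Cacna1i (-0.62 centred on length), Hcn4 (-0.02 centred on length), Kcnd1 (-0.13 centred on length, -0.07 with GC content), Kcna4 (-0.00 with GC content) and Kcnk2 (0.02 with GC content, 0.01 without the 3 libraries, 0.00 with 1 library left out). Diet in LD gave 0 in 1 fit of all libraries (0.877% of all genes) and 5 centred on length (1.67%). Diet in DD gave 4 with no filter (7.83%), 5 centred on length (12.4%), 4 with GC content (8.79%) and 17 without the 3 libraries (17.9%). With GC content the interaction gave 3 (2.87%). The cycle in LD then gave 16 of 110 (14.5%), where 17.5% of all genes were called. The cycle difference between LD and DD gave 1 without the 3 libraries (1.44%). JTK_CYCLE gave 0, 1, 0 and 0 with adjusted p (0.0844%, 0.374%, 0% and 0% of all rows), and the F-test gave 13 in -Trp LD (14.5% of all genes tested). The cause of these changes was not tested.

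Same-numbered libraries did not deviate together (r from -0.35 to 0.45, over 0.1 in 16 of 36 pairs), so no consistent pairing was seen. With the replicate number as a block the counts were 92 for DD minus LD (85.2% of all genes) and 2 and 5 for diet in LD and DD (1.1% and 12.6%). They were 9 for the interaction (7%) and 6 for the cycle in LD (12.7%).

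Leaving out 1 library gave 91 to 98 for DD minus LD (85 to 90 on Ctrl, 88 to 91 on -Trp), 2 to 6 for diet in LD, 3 to 15 in DD, 5 to 15 for the interaction, 5 to 14 for the cycle in LD, 0 to 1 for its difference between LD and DD, and 0 to 0 for the cycle in DD and both diet differences in cycle. JTK_CYCLE gave 7 to 22 in Ctrl LD, 6 to 11 in -Trp LD, 6 to 17 in Ctrl DD and 1 to 5 in -Trp DD. Single libraries behind the highest counts were Ctrl LD at 20 h replicate 2 (diet in LD 6, cycle 14, JTK_CYCLE 22), Ctrl DD at 12 h replicate 1 (diet in DD 15, JTK_CYCLE 17), -Trp DD at 8 h replicate 3 (interaction 15) and -Trp DD at 0 h replicate 1 (JTK_CYCLE 5). Of all rows JTK_CYCLE then called 10.9% (Ctrl LD at 20 h replicate 2 left out), 5.18% (Ctrl DD at 12 h replicate 1) and 2.72% (-Trp DD at 0 h replicate 1). The limma counts with 1 library left out are given without a share of all genes and are not read as particular to channels. The count for diet in DD moved by more than 1.5 times with 25 of the 36 libraries.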
